A study of Homo sapiens with 6 samples.

Results

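The array used here carries probesets that its annotation ties to no gene. They are the rows of the deposited table whose category is main and whose gene assignment is empty, and there are 8237 of them among 33297 rows in all. The table holds 28840 main rows, so 20603 main rows do have a gene assignment. RNA came from L1236, an established cell line of Hodgkin lymphoma, a malignancy of B-lineage cells. The 6 groups were untreated cells, cells with 0.1% methanol as vehicle and cells with leukotriene D4 (LTD4) at 100 nM in that vehicle, each at 1 h and at 8 h, with 1 array per group. No methanol percentage is recorded for the LTD4 cells, so that they held methanol is taken from its role as vehicle. LTD4 is a cysteinyl leukotriene, a signalling lipid of inflammation. Per the labels' protocols, the methanol and LTD4 cells were moved to serum-free medium, while the medium of the untreated cells is not stated. Methanol and the change of medium therefore cannot be told apart, and in a bulk sample fewer cells with an RNA and less of it per cell cannot be told apart either.

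Rows without a gene include short RNAs, predicted genes, pseudogenes and stretches of the mitochondrial genome. The mitochondrial genome is a small circle copied from both strands into long precursor RNAs, from which ribosomal RNAs, messenger RNAs of the respiratory chain and the short tRNAs that lie between them are cut. Nuclear chromosomes carry many inserted copies of mitochondrial DNA, and families of small nuclear and transfer RNAs are also present in many near-identical copies, so probes for one copy can bind RNA of another. The deposited annotation names no RNA class for any of the 8237 rows: the transcript column is empty for all of them. A protein accession is given for 490, a protein domain for 156 and a pathway for 8. Rows are therefore named by their identifier, position and width, and the sources used here do not give the genome build of the positions. No sequence of these rows was printed, since no genome of their build was used.

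Most rows without a gene were dim. At 1 h their median intensity, on the deposited linear scale, was 65.4 for untreated cells, 90.1 for methanol and 83.1 for LTD4, and at 8 h it was 54.6, 75.4 and 75.4. Main rows with a gene had medians of 298, 324 and 321 at 1 h and 252, 351 and 321 at 8 h. Intron control rows lay at 83.0, 106 and 117 at 1 h and 76.2, 126 and 110 at 8 h, closer to the rows without a gene. In all 3 classes the untreated array had the lowest median of its time. The 45 antigenomic controls, whose probes have no human target, had medians between 40.7 and 59.8.

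**Figure D1:**
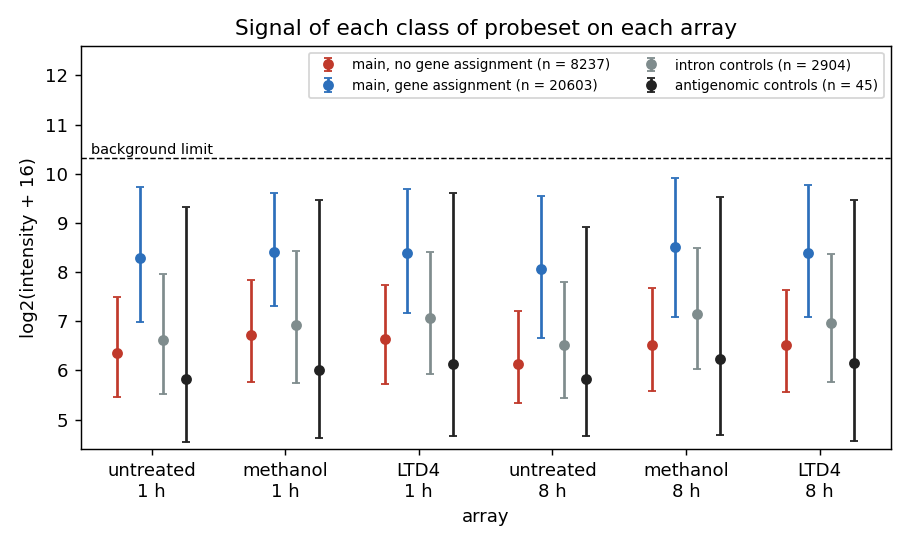
Points give the median and bars the lower and upper quartile of log2(intensity + 16) for each class of probeset on each of the 6 arrays, and the dashed line is the background limit of 10.32. Rows without a gene lie below rows with a gene on every array, with medians of 6.14 to 6.73.

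Values below are log2(intensity + 16), a scale that understates differences of dim rows. A row was tested when its mean over the 6 arrays reached a background limit of 10.32 (an intensity of 1263), which is percentile 95 of the antigenomic values. This limit is strict and kept 331 rows without a gene, 4.02% of them, against 3168 rows with a gene (15.4%) and 307 intron controls (10.6%). Of the 8237 rows, 7765 reached the limit on no array and 263 on every array. The highest array reached the limit while the mean did not in 141 rows. An intensity of exactly 0 was listed on at least 1 array for 37 rows and on all 6 for 4. Just inside the limit were 8108180, 8139270 and 8052676, with means of 10.33, 10.36 and 10.36. Just outside were 7914202, 7922266 and 7897119, with means of 10.32, 10.32 and 10.31. What follows concerns the 331 tested rows and not all 8237.

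The rows were narrow. Their median width from start to stop was 131 bases, with quartiles of 100 and 420, against 20071 bases for main rows with a gene, and the tested rows had a median of 359. Strands were split evenly, 4122 plus and 4115 minus. The annotation gives a cross-hybridisation type, where 1 marks probes unique to the row and 3 marks a mixture that also matches other sequences. Of 7251 rows of type 1, 200 (2.76%) were tested, and of 986 rows of type 3, 131 (13.3%). Median levels were 6.36 and 7.77, so rows whose probes also match elsewhere were the brighter ones. All 6 values were shared with another row without a gene by 32 tested rows, so the 331 rows held 312 distinct profiles. Rows with identical values are not independent measurements.

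The rows lay on every chromosome, and chromosome 1 (760), chromosome 2 (689) and chromosome 3 (460) held more than any other. The share that was tested was 5.53% on chromosome 1 and 6.38% on chromosome 5, but 0.645% on chromosome 18 and 1.10% on chromosome 21. Chromosome M stood apart, with 26 of its 28 rows tested (92.9%) and a median level of 12.81. Within a gene on the same strand lay 1453 rows, of which 28 were tested, and within a gene on the opposite strand lay 1431, of which 46 were tested. No gene overlapped 5202 rows, of which 252 were tested.

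The 10 rows of highest mean, 13.90 to 14.43, included 8165665 (chrM:7587-8270), 8165690, 8165661 and 8165650 on chromosome M and 8169350 on chromosome X. Row 8165665 had intensities of 18876, 18435 and 23017 on the untreated, methanol and LTD4 arrays at 1 h and 20949, 19895 and 19853 at 8 h, a range within which the agents overlapped. Row 8169350 (chrX:108183981-108184490) had 19384, 14356 and 18703 at 1 h and 22280, 16325 and 16946 at 8 h.

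Agents and times were compared in an additive model of both over the 6 arrays, fitted with limma on all 3499 tested main rows. The model had 2 residual degrees of freedom, and the standard error was the same for every row, 0.226 for agents and 0.184 for time. The agents serve as repeats for time and the times as repeats for agents, and the labels name no repeated cultures. The p-values therefore measure only how far arrays depart from an additive pattern, pooled over all tested rows, and this spread may be technical. Residuals were wider in rows without a gene, with a median SD of 0.246 against 0.194 in tested rows with a gene. Within them they were wider in rows of up to 200 bases (0.322) than in longer ones (0.218). The shared standard error does not allow for this, so the threshold was easier to pass in such rows. Its part in the counts of calls below was not tested.

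Methanol against untreated gave most of the calls. At an adjusted p under 0.05, 36 rows without a gene were higher with methanol and 34 lower, 70 of 331 (21.1%). Over all tested main rows the share called was 3.17%, 111 of 3499, with 1.86% higher and 1.31% lower, so rows without a gene made up 70 of the 111 calls. Rows with a gene had 29 higher and 12 lower among 3168. The median difference was 0.06 in the rows without a gene and 0.02 over all tested rows. With arrays centred on their medians, 36 rows were higher and 35 lower (3.86% and 4.32% over all rows, 8.17% together), and 58 of the 70 calls were shared. Calls rested on single arrays to a large extent. Without the methanol array at 1 h, 23 of the 36 higher and 2 of the 34 lower calls were kept, and without the methanol array at 8 h 12 and 31 were kept. Called whichever array was left out were 4 higher rows (8165684, 8165700, 7995320 and 7995338) and 2 lower rows (8165646 and 7987572), a set picked after their values were seen. Intron and antigenomic controls also had their lowest medians on the untreated arrays, and their part in these differences was not tested.

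The split between higher and lower calls differed by width. Among the 59 tested rows of up to 100 bases, 24 were higher with methanol and 5 lower, with a median difference of 0.57. Among the 45 rows of over 100 to 200 bases, 5 were higher and 17 lower, with a median of -0.27. Rows with near-identical or identical values carried part of this: 10 of the 17 were 164-base rows with 4 distinct profiles, and without chromosome M the rows of up to 100 bases had 16 higher and 5 lower of 45. Rows of over 200 to 500 bases had 5 higher and 10 lower of 98. Rows of over 500 to 5000 bases had 2 and 2 of 96 (4.17%, where 3.17% of all tested rows were called). The 33 longer rows had none at a threshold of 0.05, but 3 were higher after centring (9.09%, against 8.17% of all). Without the methanol array at 1 h, 18 of the 24 higher calls of up to 100 bases and 0 of the 17 lower calls of over 100 to 200 bases were kept, and without the methanol array at 8 h 7 and 16 were. Short rows with a gene also had more higher than lower calls, 8 and 0 of 20 for up to 100 bases and 5 and 3 of 24 for over 100 to 200 bases. Centring kept the order, with 21 higher and 2 lower among rows of up to 100 bases and 5 and 18 among rows of over 100 to 200.

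**Figure D2:**
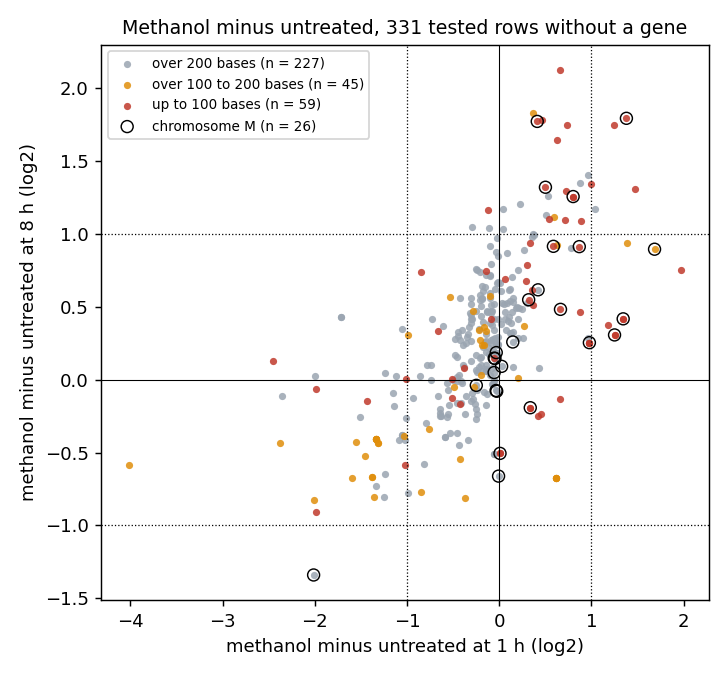
Each point is 1 of the 331 tested rows without a gene, placed by methanol minus untreated at 1 h (x axis) and 8 h (y axis) in log2 units, coloured by width and ringed on chromosome M, with dotted lines at 2-fold. Rows of up to 100 bases spread to the upper right and rows of over 100 to 200 bases to the lower left.

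On chromosome M the short rows carried the difference. Of 17 rows of up to 200 bases, 15 were tested, and 9 of these were higher with methanol and none lower at a threshold of 0.05, with a median difference of 0.78. After centring 7 were called, and 3 were kept without the methanol array at 8 h and 4 without either LTD4 array. By strand, 6 of 8 plus rows were called and 6 after centring, against 3 of 7 minus rows and 1 after centring. Of the 11 longer rows, none was higher and 1 was lower, with a median of -0.00. At 1 h the methanol array exceeded the untreated one in 14 of the 15 short rows and at 8 h in 13. The LTD4 array, taken to carry methanol as vehicle and compared with the same untreated array, exceeded it in 15 at 1 h and in 13 at 8 h. The 2 short rows that were not tested, 8165663 and 8165672, had means of 10.30 and 9.89, below the limit, with intensities of 705 and 359 on the untreated array at 1 h and 1235 and 1009 on the methanol array.

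Row 8165684 (chrM:12267-12337, plus strand, 71 bases) had the greatest rise of the tested rows without a gene. Its intensity was 1622 untreated, 4243 with methanol and 5367 with LTD4 at 1 h, and 1781, 6210 and 4622 at 8 h. Both untreated values lay below all 4 others. The fitted difference was 1.59 (SE 0.226, adjusted p = 7.76e-10). Beside it on the same strand, rows 8165680 (69 bases) and 8165682 (59 bases) rose by 0.89 and 0.75, while the long rows on either side, 8165676 and 8165686, did not pass the test. Row 8165676 (chrM:10406-12138) is the only chromosome M row with a protein domain in the annotation, one named NADH, and it read 12721, 12436 and 16249 at 1 h and 13498, 15354 and 13498 at 8 h. On the minus strand 8165700 (chrM:5762-5892, 131 bases) rose by 1.29, from 1552 untreated to 5022 with methanol and 4529 with LTD4 at 1 h, and from 1851 to 3456 and 2862 at 8 h. Its untreated values were again the lowest of each time.

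Row 8165646 (chrM:670-931, plus strand, 262 bases) went the other way. It read 21594 untreated, 5338 with methanol and 10744 with LTD4 at 1 h, and 28456, 11230 and 8582 at 8 h. The untreated values exceeded all others. The fitted difference was -1.68 (SE 0.226, adjusted p = 4.57e-11). The short rows that flank it, 8165644 and 8165648, had differences that did not pass the test, with 11877 untreated and 11439 with methanol at 1 h for the first and 8041 and 10035 for the second.

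**Figure D3:**
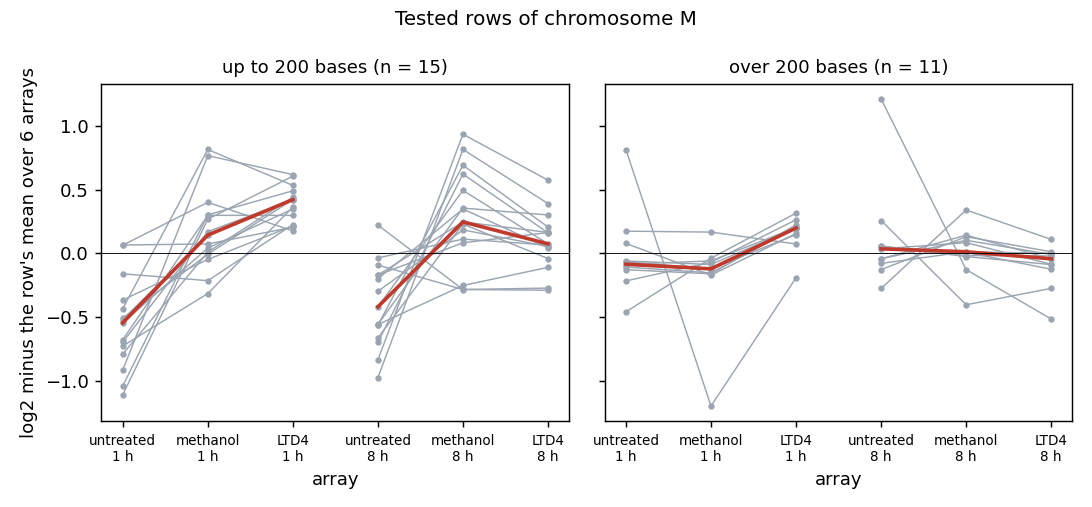
Grey lines are the tested rows of chromosome M, each as log2(intensity + 16) minus its own mean over the 6 arrays, with 15 rows of up to 200 bases on the left and 11 longer rows on the right, and red lines are medians. The median of the short rows is lowest on the untreated arrays, though methanol lies below untreated in 1 short row at 1 h and 2 at 8 h. On the untreated arrays 1 long row, 8165646, stands far above the others.

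Rows on nuclear chromosomes repeated the layout of chromosome M. On chromosome 1, 8 tested rows of 66 to 73 bases lay between 554742 and 558776. All 8 lined up with chromosome M rows at a single offset of 550412 bases, 6 by start and stop and 2 by stop alone, within 2 bases. Of the 8 rows, 5 had exactly the values of their chromosome M partner. With methanol 6 of the 8 were higher and none lower at a threshold of 0.05, with a median of 0.93, and 2 of the 6 were kept without the methanol array at 8 h and 3 without that at 1 h. The highest was 7911341 (chr1:556239-556304), with 1009 untreated and 3998 with methanol at 1 h and 1319 and 2236 at 8 h, a difference of 1.36 (SE 0.226, adjusted p = 3.31e-07) that was not called with quantile normalization. Row 7973871 on chromosome 14 and row 8113120 on chromosome 5 also had all 6 values of a chromosome M row. These identical rows cannot show from which chromosome the RNA came.

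Row 8165646 had counterparts as well. A search for pairs of nuclear rows without a gene with the widths and spacing of a chromosome M pair that includes a row over 200 bases, within 3 bases and up to 5000 bases apart, found 8 pairs on 3 chromosomes (1, 11 and X). Every pair held a row of 259 to 264 bases in place of the 262-base row, in reversed order. This search was chosen after the values were seen. On chromosome 11, rows of 69, 261 and 71 bases at chr11:10487312-10488403 mirrored 8165648, 8165646 and 8165644. The 261-base row 7946565 fell with methanol by 0.75 (SE 0.226, adjusted p = 0.0302), with 28963, 13575 and 22451 at 1 h and 30261, 22761 and 19013 at 8 h. The 246-base row 8174970 on chromosome X fell by 0.72 (adjusted p = 0.0477). Neither of these calls was kept without the methanol array at 1 h or with quantile normalization, where the differences were -0.36 and -0.22. The other 3 rows of this width in the search were below the limit. They read 102 untreated and 53.2 with methanol at 1 h and 102 and 130 at 8 h for 7925440, 57.4 and 55.5 at 1 h and 74.7 and 68.6 at 8 h for 7951349, and 975 and 342 at 1 h and 1137 and 990 at 8 h for 8173164.

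Without the 28 chromosome M rows, 60 calls remained for methanol, 27 higher and 33 lower. Without a further set of nuclear rows that lay within 0.25 log2 of a chromosome M row on every array, 23 higher and 33 lower calls remained. Both counts were chosen after the data were seen.

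A stretch of chromosome 16 held 16 rows without a gene between 34826781 and 34846562, all on the plus strand. Of these, 5 were tested, and 4 of the 5 rose with methanol. Row 7995320 (chr16:34826781-34826856, 76 bases) read 3131 untreated, 8734 with methanol and 4959 with LTD4 at 1 h, and 1692, 4220 and 4608 at 8 h. Its difference was 1.39 (SE 0.226, adjusted p = 1.61e-07). Row 7995338 (94 bases) also rose (adjusted p = 1.09e-08), from 1122 to 2685 at 1 h and from 433 to 1491 at 8 h. Rows 7995330 and 7995352 rose by 1.16 and 0.78, calls that were lost without the methanol array at 1 h, and the second also after centring. The fifth, 7995328, read 2011 untreated and 1107 with methanol at 1 h and 1206 and 2019 at 8 h, so its times disagreed. The 11 rows below the limit all had more signal on the methanol than on the untreated array at both times, with median differences of 1.08 at 1 h and 1.01 at 8 h. The rows are tightly spaced members of 1 cluster and do not count as repeats of each other. The single row with a gene in the stretch, named FLJ26245, differed by 1.09 and 1.03.

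**Figure D4:**
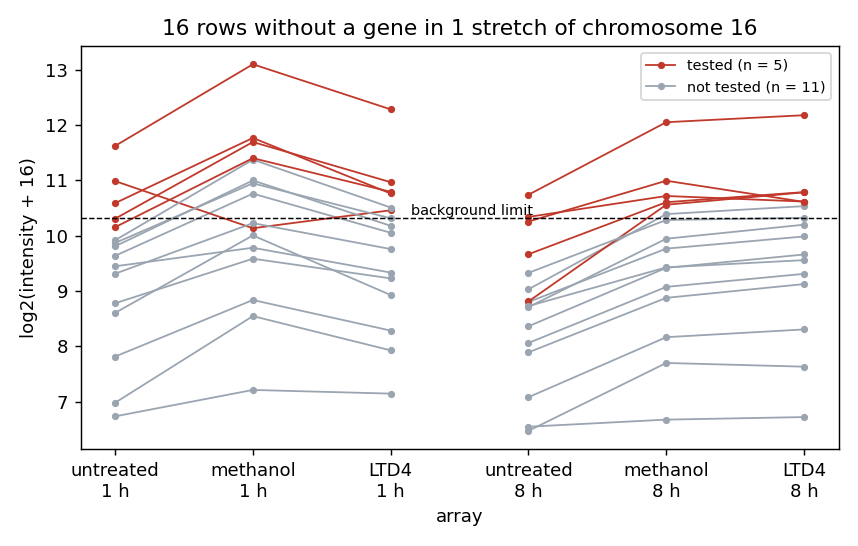
Each line is 1 of the 16 rows without a gene in the stretch of chromosome 16, as log2(intensity + 16) on the 6 arrays, red where tested (n = 5) and grey where not (n = 11), with the background limit dashed. The methanol value exceeds the untreated value in 15 of 16 rows at 1 h and in 16 of 16 at 8 h.

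Tested rows of exactly 164 bases were all lower with methanol, but this width was picked because its calls were all lower. The 5 tested rows of 165 bases, with 2 distinct profiles, had 0 methanol calls. Of 164 bases there were 39 rows without a gene, 10 of them tested, and all 10 were called lower, with a median difference of -0.87. After centring all 10 were still called. They stood for 4 distinct profiles. Rows 7898375, 7898411, 7912800, 7912850 and 7919576 on chromosome 1 shared all 6 values, as did 7919269 with 7919349 and 7973896 with 7978568 on chromosome 14. The set of 5 read 2572 untreated, 1007 with methanol and 1567 with LTD4 at 1 h, and 2938, 2213 and 1692 at 8 h. Row 8102787 (chr4:137136534-137136697) had the largest fall of the 10, by 1.08, with 2435, 936 and 1385 at 1 h and 3015, 1721 and 1385 at 8 h. Untreated values were above all others in each of the 4 profiles. None of the 10 calls was kept without the methanol array at 1 h.

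Other lower rows were scattered. Row 7987572 (chr15:38924962-38925032, 71 bases, on the strand opposite to SPINT1) read 3602, 894 and 1131 at 1 h and 3486, 1847 and 1533 at 8 h, a difference of -1.45 (SE 0.226, adjusted p = 3.90e-08). Row 7970842 on chromosome 13 fell by 1.41 and row 8148057 on chromosome 8 by 1.14. Row 7898570, opposite to CAPZB, fell by 1.03. In these 4 rows the untreated value was the highest at both times. Row 7978905 (chr14:49390084-49390382) fell by 0.88, with 30094, 15158 and 16068 at 1 h and 32230, 18750 and 23333 at 8 h. Row 8040338, inside GREB1, fell by 0.81 and was among the brightest 10. Of the rows in this paragraph, 7987572 alone was still called without the methanol array at 1 h. With quantile normalization the differences of 7978905 and 8040338 were -0.43 and -0.52 and neither was called.

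Other higher rows were mostly short. Row 8143461 (71 bases, chromosome 7) rose by 1.39, with 1214, 1922 and 2837 at 1 h and 1011, 4463 and 2617 at 8 h. Row 8173156 (68 bases, chromosome X) rose by 1.24, with 817, 1370 and 2357 at 1 h and 976, 3307 and 2375 at 8 h, and 8114211 (69 bases, opposite to PCBD2) rose by 1.17. Row 8052676 (276 bases, chromosome 2) rose by 1.18. Row 7949410 lies inside MALAT1, a long noncoding RNA of the nucleus, on the opposite strand, and rose by 0.78, with 908, 1411 and 1853 at 1 h and 972, 1859 and 1722 at 8 h. The call of 8052676 was lost without the methanol array at 1 h or the untreated array at 8 h, and the other 4 were lost without the methanol array at 8 h.

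Of the 28 tested rows inside a gene on the same strand, 7 (25%) were called, all lower. Over all tested rows 3.17% were called and 1.31% were lower. None of the 7 calls was kept without the methanol array at 1 h. After centring the class had 1 higher and 7 lower, where 8.17% of all tested rows were called. Near the threshold, 8174970, 7967620 and 7976158 had adjusted p-values of 0.0477, 0.0477 and 0.0491, and 7969828, 7969792 and 8000131 had 0.0528, 0.0582 and 0.0684.

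Single pairs of arrays gave a different split at each time. At 1 h, 12 rows were at least 2-fold higher with methanol than untreated and 42 lower, against 0.486% and 1.69% of all tested rows (2.17% together). At 8 h, 29 were higher and 1 lower, against 1.89% and 0.114% (2% together). After centring the counts were 24 and 30 at 1 h (0.943% and 1.14% of all rows, 2.09% together) and 14 and 8 at 8 h (0.686% and 0.314%, 1% together), so the imbalance at both times depended on the scaling. At 1.5-fold, 102 rows passed at 1 h and 93 at 8 h, against 9.92% and 13.6% of all rows. The methanol array at 1 h lay 2-fold below both other arrays of its time in 10 rows without a gene, out of 11 among all 3499. The untreated array at 8 h lay 2-fold below both others in 17 rows, out of 37. After centring these counts were 9 out of 10 and 10 out of 15, while the untreated array at 1 h lay below both others in 16 rows in place of 5.

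LTD4 against methanol gave 1 call, 8094026, which is also the only call over all rows (0.0286%). This 178-base row (chr4:7635087-7635264) lies inside SORCS2 on the same strand. It read 3689 untreated, 213 with methanol and 2552 with LTD4 at 1 h, and 4277, 2843 and 1819 at 8 h. The value with methanol at 1 h stood alone, and at 8 h LTD4 was the lowest. The fitted LTD4 difference was 1.42 (SE 0.226), and it was -0.47 without the methanol array at 1 h. No row was called after centring, and at an unadjusted p under 0.05 there were 8 of the 331 rows without a gene on the deposited scale, against 0.514% of all tested rows. The rows just outside the threshold, 8176566, 7947607 and 7919129, had adjusted p-values of 0.139, 0.139 and 0.338 and also had their lowest value with methanol at 1 h.

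By size alone, in no row without a gene did the LTD4 array lie 2-fold beyond both references of its time, methanol and untreated, at 1 h (0.0286% of all tested rows) or at 8 h (0% of all). At 1.5-fold, 4 rows were higher at 1 h and 1 lower, where 0.4% and 0.0286% of all rows passed (0.429% together). Those higher were 7896746, 8165656, 8173156 and 8176568, and the first 2 are a chromosome 1 row and its chromosome M partner. Row 8165656 read 1155, 1542 and 2478 at 1 h, but at 8 h it read 1070, 3693 and 2874, with LTD4 below methanol. Row 7984660 on chromosome 15 was lower at 1 h, with 2568, 1977 and 1194. At 8 h 3 rows were lower, 7918153, 8094026 and 8109486, and none higher, against 0.114% and 0.0572% of all rows (0.171% together). After centring 3 rows passed at 1 h (0.314% of all), 8173156, 8176568 and 7984660, and 2 at 8 h (0.143%), 8109486 and 8091241.

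**Figure D5:**
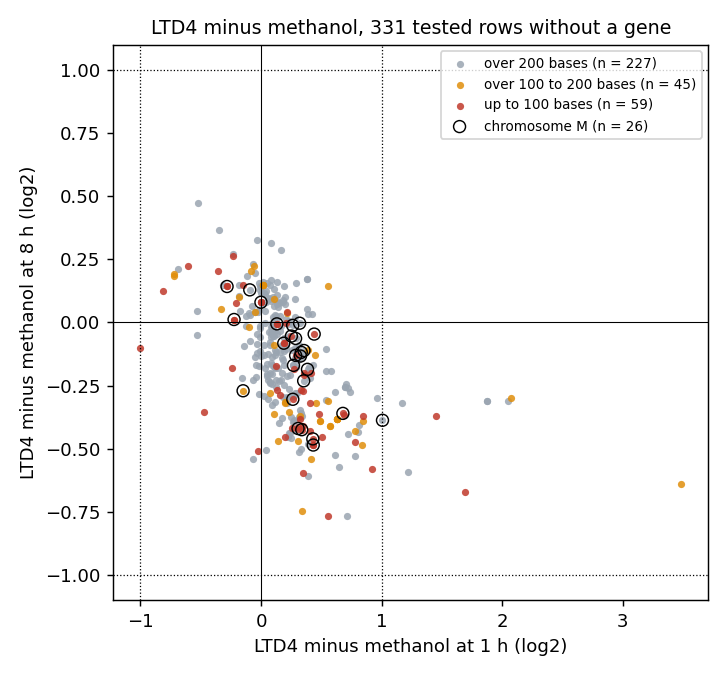
Each point is 1 of the 331 tested rows without a gene, placed by LTD4 minus methanol at 1 h (x axis) and 8 h (y axis) in log2 units, coloured by width and ringed on chromosome M, with dotted lines at 2-fold. Row 8094026, at 3.49 and -0.64, is the point farthest to the right.

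Against the vehicle, the LTD4 array was above methanol in 259 of the 331 rows at 1 h and in 98 at 8 h. The median difference was 0.17 at 1 h and -0.13 at 8 h, and over all tested rows it was 0.12 and -0.09. For chromosome M the LTD4 array exceeded methanol in 11 of 15 short and 10 of 11 long rows at 1 h, and in 3 of 15 and 1 of 11 at 8 h. The rows without a gene thus shifted in the direction of all rows at each time. These are differences of 2 single arrays with no test.

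Time gave 14 calls, 6 rows higher and 8 lower at 8 h than at 1 h, or 4.23% of the rows. Over all rows 0.543% were higher and 0.486% lower (1.03% together). After centring 1 was higher and 1 lower, against 0.2% and 0.629% of all rows (0.829% together). None of the 14 was kept without either methanol array. Of the 14, 3 higher and 4 lower rows moved the same way for all 3 agents. Row 7970392 (chr13:18609559-18610496) fell by 0.88 (SE 0.184, adjusted p = 0.000975), from 2876, 3893 and 3794 at 1 h to 1688, 1787 and 2246 at 8 h, with no overlap between the times. Rows 7984684, 7984983, 7984987 and 7990307 on chromosome 15, each of 165 bases, shared all 6 values and fell by 0.72 (adjusted p = 0.0136). They read 2047, 3156 and 3194 at 1 h and 2196, 1369 and 1518 at 8 h, so the untreated arrays did not share the fall. Row 8052676 fell by 0.86, and in the chromosome 16 stretch 7995338 and 7995320 fell by 0.73 and 0.68.

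The higher rows with time included a pair next to GAS5, a noncoding RNA gene whose introns carry small nucleolar RNAs, which guide the modification of ribosomal RNA. Row 7922408 (chr1:172101383-172101447, 65 bases) rose by 0.80 (SE 0.184, adjusted p = 0.00441), from 1542, 1950 and 2249 at 1 h to 2134, 4103 and 4096 at 8 h for untreated, methanol and LTD4. Row 7922414 (82 bases) rose by 0.64 (adjusted p = 0.0481), from 2519, 2630 and 3743 to 3676, 5942 and 4336. Around them, 5 rows without a gene and 5 rows assigned to GAS5, SNORD47, SNORD44 or SNORD74 lie interleaved on the minus strand. All 10 had more signal at 8 h than at 1 h with each agent. The median difference of the 5 rows without a gene was 0.46 untreated, 1.07 with methanol and 0.58 with LTD4, and that of the rows with a gene was 0.38, 1.29 and 0.35. This stretch was picked after its values were seen, and 3 of the 5 rows without a gene were below the limit. Rows 7922402, 7922404 and 7922406, assigned to SNORD47 and GAS5, were also below it, with means of 10.28, 9.33 and 9.59. Close to the threshold, 7947607, 7995320 and 7922414 had adjusted p-values of 0.0164, 0.0272 and 0.0481, and 7995330, 8164060 and 8165703 had 0.0526, 0.0677 and 0.0703.

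On the deposited scale no methanol call fell on a row with protein annotation, 0 of 17 with a domain and 0 of 10 with an accession alone. Over all tested main rows 3.17% were called, and with so few annotated rows 0 calls cannot be told apart from that share. The 304 tested rows with no such record had 36 higher and 34 lower (23%). Of the 331, 17 carried a protein domain, 12 a protein accession and 1 a pathway. None of the 17 with a domain was called in any of the 3 comparisons on the deposited scale. After centring 2 of them passed for methanol (11.8%, against 8.17% of all tested rows). Row 8024001 (ribosomal protein S5 domain) read 3994, 3831 and 3508 at 1 h and 3666, 3648 and 3613 at 8 h, a narrow range. Row 8106475 (actin domain) read 8860, 5906 and 7001 at 1 h and 9007, 6850 and 5598 at 8 h, with both untreated values highest. Row 8000676 (nuclear pore complex interacting domain) read 1935, 2477 and 3116 at 1 h and 1829, 3616 and 2819 at 8 h, a methanol difference of 0.67 with an adjusted p of 0.0823.

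As a check of the cells, 7 of 10 marker genes of Hodgkin cells reached the limit, with summed intensities of 18044 to 21374 over the arrays. None of 7 B cell, 4 T cell, 3 monocyte, 4 fibroblast or 3 erythroid markers did. The defining marker TNFRSF8 (CD30) stayed below the limit, at 496 to 872. Across the tested rows without a gene, Pearson's correlation was lowest between the methanol array of 1 h and the untreated array of 8 h, at 0.727, and highest between the methanol and LTD4 arrays of 8 h, at 0.971. Over tested rows with a gene the lowest was 0.9001 and the highest 0.983. These values are across rows that share arrays and are descriptions only.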

How the data were processed

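Arrays of 6 L1236 samples were used, 1 per group. The deposited table holds intensities on a linear scale for each probeset. Per the submitters' processing notes, RMA and Affymetrix Expression Console were used, while the name of the deposited table carries PLIER, and the sources used here give neither the normalization between arrays nor the genome build. A second deposited table held the same intensities in all 199782 values. Values were taken as log2(intensity + 16) with no further scaling, and centred values were an alternative. limma 3.58.1 in R 4.3.3 (lmFit, eBayes) fitted agent and time, and p-values were adjusted by Benjamini-Hochberg over 3499 rows with a threshold of 0.05, checked on simulated data. The simulation gave every row the same spread and independent values, so it does not check rows of wider spread or with identical values. Annotation classes were planned from the transcript column, which is empty for these rows, so width, position and other columns were used. Named rows are the 10 largest calls per direction and comparison that moved alike on all pairs, the 10 brightest, the longest runs and the 3 on either side of each threshold. Others were chosen after their values were seen. Members, lists and tests were chosen with earlier results of these data known. The number of arrays limits the precision. Sample columns left unused numbered 0.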

Additional observations from a re-analysis of the deposited data

Results flagged for a closer look

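In some rows every available pair moved one way at 1 h and the opposite way at 8 h. With 1 array per group these differences between times were not tested. For LTD4 minus methanol, the effect at 8 h minus that at 1 h was -4.13 in 8094026 (3.49 at 1 h and -0.64 at 8 h), -2.36 in 8091241 (1.69 and -0.67), -1.81 in 8115873 (1.21 and -0.59) and -1.48 in 8109486 (0.72 and -0.76). For methanol minus untreated, it was 1.59 in 7995328 (-0.85 and 0.74). It was -1.30 in each of 7984684, 7984983, 7984987 and 7990307 (0.62 and -0.68), which share all 6 values. Over the 331 rows, the LTD4 minus methanol effect fell by at least 1 log2 unit from 1 h to 8 h in 35 and rose in 0, where 1.51% of all tested rows moved that far. After centring these counts were 23 and 7 (1.14% of all). The methanol minus untreated effect, which shares the methanol arrays, fell that far in 5 rows and rose in 34 (1.97% of all). After centring it fell in 19 and rose in 11 (1.03% of all).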

How the results depend on the processing

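No paired analysis was possible because each group has 1 array and the labels give no replicate numbers. Results below count rows without a gene. For methanol against untreated, the count of 70 became 140 with a filter on the highest array, 481 with a filter at the median of main rows, 1343 with no filter and 40 with type 1 rows alone. The split of 36 higher and 34 lower became 85 and 55, 373 and 108, and 1188 and 155 with those 3 filters in turn. Calls over all rows were not set beside these counts. Leaving out each array gave 29 to 68, with 29 without the methanol array at 1 h, and 38 without either LTD4 array. The split was 27 higher and 2 lower without the methanol array at 1 h, and 13 and 41 without that at 8 h. For LTD4 against methanol, the count of 1 became 0 when centred, 0 when centred with a trend, 0 with quantile normalization, 2, 6 and 11 with the highest-array filter, the median filter and no filter, and 0 to 8 with an array left out. For time, the count of 14 became 2 when centred, 6 when centred with a trend, 2 with quantile normalization, 42, 117 and 301 with those 3 filters, 9 with type 1 rows alone, and 0 to 38 with an array left out, 0 without either methanol array and 38 without either untreated array. Past 2-fold, methanol at 1 h gave 112, 291 and 663 with those 3 filters, 102 at 1.5-fold and 33 with type 1 rows, and at 8 h 79, 292 and 748, and 93 at 1.5-fold. LTD4 at 1 h gave 1, 4 and 24 with those filters and 5 at 1.5-fold, and at 8 h 1 with the median filter, 10 with no filter and 3 at 1.5-fold. Centring with a trend, centring with arrays left out and counts without chromosome M rows were added after the data were seen. With 1 array left out, the LTD4 difference ran from -0.30 to 1.86 in 7919129, from -0.19 to 1.97 in 7947607, from -0.47 to 3.31 in 8094026 and from -0.28 to 2.02 in 8176566, turning without the methanol array at 1 h. The time difference ran from -0.013 to 1.17 in 7947607 and from -0.0042 to 0.955 in 8164060, turning without either methanol array. The cause was not tested, except that filters changed the number of rows tested. Among 43 named rows whose methanol difference was followed across the settings, 0 reversed. That count does not cover every row named here. Row 7995328, for instance, had methanol differences of opposite sign at 1 h and 8 h. Rows near background understate differences.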
